A study of Mus musculus with 2 samples.

Results

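Arginine feeds several enzymes in myeloid cells, and 9 genes of its use and of the polyamine pathway were followed here in single spleen cells of mice with and without mammary tumours. The genes are Arg1, Arg2, Nos2, Odc1, Oaz1, Azin1, Sat1, Srm and Sms, taken by name from the 27998 genes of the expression matrices. Arginases split arginine into urea and ornithine, and nitric oxide synthase turns arginine into nitric oxide and citrulline. Ornithine decarboxylase makes putrescine from ornithine, and spermidine and spermine are built from putrescine in further steps. Loss of arginine and release of nitric oxide by suppressive myeloid cells are known to restrain T cells.

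The PyMT library was made from the pooled spleens of 3 mice with tumours, of a strain given as PYMT, the polyoma middle T antigen model of mammary cancer. The wild-type library was made from the pooled spleens of 5 mice of the strain FVB/n. The promoter of the transgene, the genetic background of the PyMT mice and the age of the animals are not given in the sources used here. Cells of both libraries were sorted for the surface proteins CD11b and Gr1, which are carried by neutrophils and many monocytes, and were sequenced as 3′ droplet libraries. In PyMT there were 9155 cells and 73435307 UMIs (unique molecular identifiers, each counting 1 captured transcript), and in wild type 5491 cells and 42542700 UMIs. Animals of a pool cannot be separated and every condition is a single library, so differences between conditions were not tested. Intervals are 95% and cover counting error only.

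Cells were put into classes by their transcripts. Neutrophils had at least 10% of their UMIs in S100a8 and S100a9 and fewer than 2 UMIs of the B cell genes Cd79a and Cd79b. Monocytes had less than 5% in S100a8 and S100a9 and at least 2 UMIs of Csf1r and Ccr2, and B cells had less than 5% and at least 3 UMIs of Cd79a and Cd79b. There were 5488 neutrophils in PyMT and 3980 in wild type, with a median of 8285 UMIs per cell in PyMT and 5630 in wild type. Monocytes numbered 1526 in PyMT and 530 in wild type. All 10 neutrophil markers examined, among them Ly6g, Ltf and Cxcr2, were detected in neutrophils, and their summed level was 83394 CPM (UMIs per 1000000 UMIs of the class) in PyMT and 84629 CPM in wild type. B cells, which as a rule do not carry Gr1, numbered 1081 in PyMT (11.8% of cells) and 304 in wild type (5.54%). The 2 libraries shared 72 cell barcodes.

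Neutrophils were divided further by Camp, which encodes a granule antimicrobial peptide made during maturation in the bone marrow. Camp-high cells had at least 4% of their UMIs in Camp, Camp-middle cells 1 to 4%, and Camp-low cells less than 1%. This make-up differed greatly between the libraries. Camp-low cells were 37.5% of neutrophils in PyMT (2057 cells) and 1.41% in wild type (56 cells). Camp-middle cells were 33.0% in PyMT and 11.8% in wild type, and Camp-high cells were 29.5% in PyMT and 86.8% in wild type. Pooled neutrophil values of the genes are therefore given with values within these strata, of which the 56 wild-type Camp-low cells are the least precise.

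Arg2, which encodes the mitochondrial arginase (chr12:79130777-79156301 on GRCm38, plus strand), was the arginase detected in these cells. In neutrophils it was at 77.1 CPM in PyMT (3727 UMIs, interval 74.7 to 79.6) and at 10.4 CPM in wild type (316 UMIs, 9.28 to 11.6). The log2 ratio of PyMT over wild type was 2.89 (2.72 to 3.06), a 7.42-fold difference. At least 1 Arg2 UMI was found in 41.8% of PyMT neutrophils and 6.88% of wild-type neutrophils. In B cells, which are not known for Arg2, the share was 5.00% in PyMT and 2.63% in wild type, at median depths of 3420 UMIs in PyMT and 3762.5 UMIs in wild type. The neutrophil shares thus lay above the B cell shares in both libraries. After every cell was thinned to 1000 UMIs, the neutrophil shares were 10.8% in PyMT and 1.43% in wild type. The thinned B cell shares were 1.30% in PyMT and 0% in wild type, where 0 of 304 cells allow a share of up to 1.21%. The wild-type neutrophil share at this depth was close to that of PyMT B cells, while the PyMT neutrophil share stayed above both.

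Arg2 was higher at lower Camp in both libraries. In PyMT it was at 16.0 CPM in Camp-high, 51.0 CPM in Camp-middle and 245 CPM in Camp-low cells. In wild type the same strata had 8.33, 23.3 and 78.3 CPM, the last from 18 UMIs (46.4 to 124 CPM). Camp-low over Camp-high cells gave a 15.3-fold difference in PyMT, where Arg2, Azin1 and Sat1 were called higher of 6 genes compared (26% of all genes called higher and 19.3% lower), and a 9.41-fold difference in wild type, where Arg2 and Sat1 were called higher of 6 (8.66% higher and 3.02% lower). A call means a difference of at least 1.5-fold with an interval clear of 0, among genes with 50 UMIs or more over both sums compared. Camp-low cells held 65.8% of the Arg2 UMIs of PyMT neutrophils while holding 20.7% of all their UMIs. In wild-type neutrophils 71.2% of the Arg2 UMIs came from Camp-high cells, which held 88.9% of all UMIs.

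Within each stratum the PyMT level was the higher, by less than in the pooled cells. The log2 ratio was 0.94 (0.69 to 1.20) in Camp-high cells, 1.13 (0.79 to 1.49) in Camp-middle cells and 1.65 (0.98 to 2.40) in Camp-low cells. With the PyMT strata weighted as they occur in wild type, Arg2 was at 21.4 CPM in PyMT against 10.4 CPM in wild type, a log2 ratio of 1.04 in place of 2.89. Cells with transcripts of other types were unevenly spread, since 9.49% of Camp-middle cells in PyMT and 33.3% in wild type carried 2 or more UMIs of monocyte, dendritic, T or NK cell genes. Without those cells the Camp-middle levels were 54.9 CPM in PyMT and 44.0 CPM in wild type, and the log2 ratio of 0.32 (−0.06 to 0.72) no longer stood clear of 0. The Camp-high and Camp-low ratios were then 0.75 (0.50 to 1.02) and 1.34 (0.65 to 2.12).

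**Figure D1:**
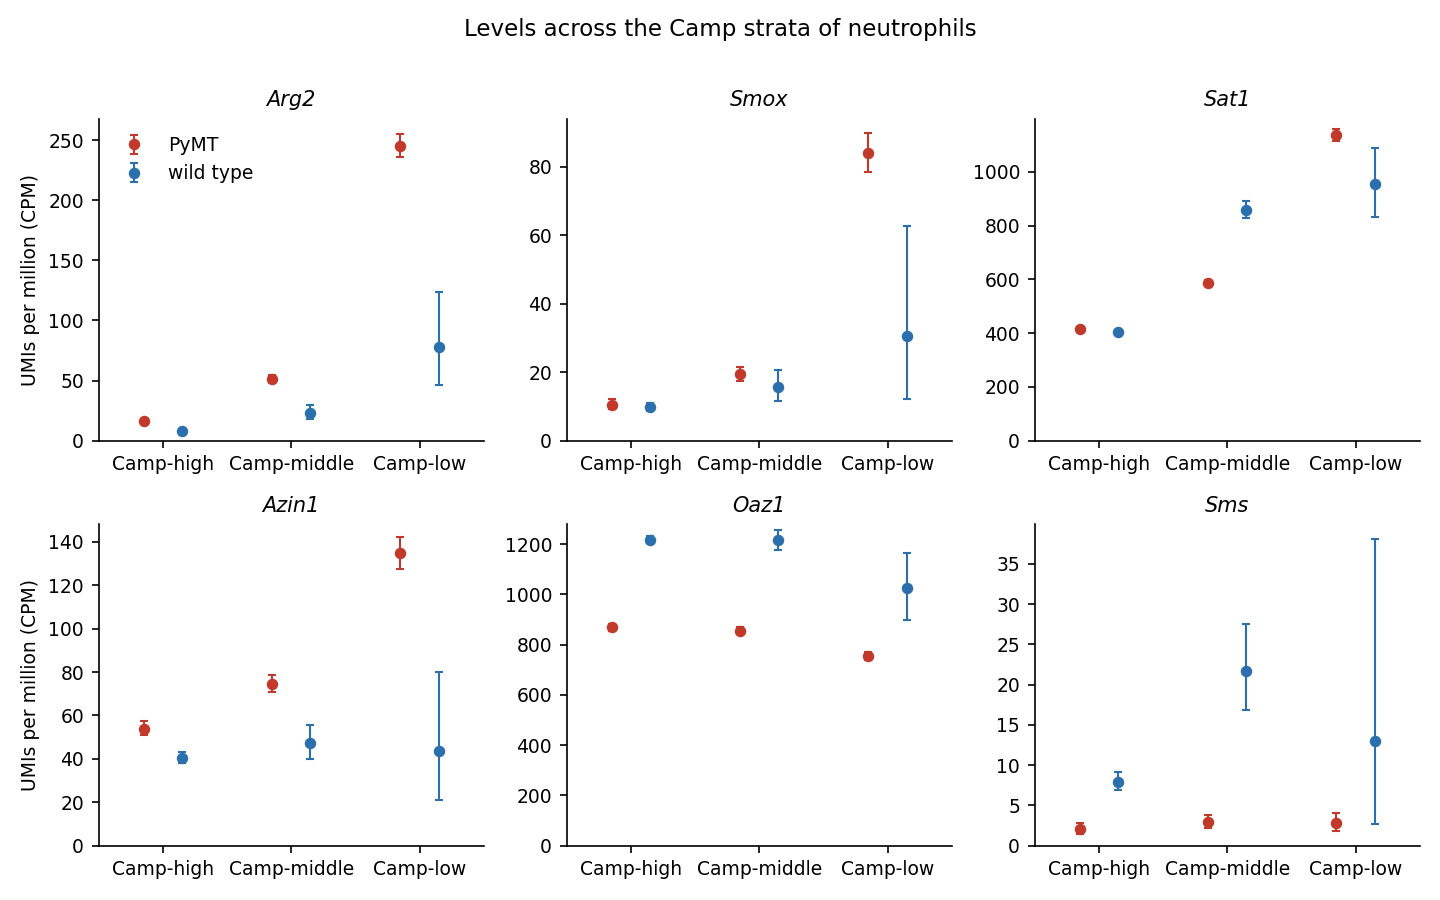
Levels in CPM (UMIs per 1000000 UMIs of the stratum, linear axes from 0) of 5 genes of the set and of Smox in Camp-high, Camp-middle and Camp-low neutrophils. Points are the sum over all cells of the stratum in PyMT (red, left) or wild type (blue, right), bars are exact Poisson 95% intervals, and bars not visible are smaller than the point. Arg2 reaches 245 CPM in PyMT and 78.3 CPM in wild-type Camp-low cells, while Oaz1 lies lower in PyMT in each stratum.

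Among PyMT neutrophils, Arg2 was higher at higher Wfdc17, a gene of a small secreted protein that was abundant in a part of these cells. Arg2 was at 33.4 CPM in the 3426 cells with less than 0.5% of their UMIs in Wfdc17, at 172 CPM in 986 cells with 0.5 to 2%, and at 311 CPM (294 to 328) in 1076 cells with at least 2%. Median depth fell in the same order, at 10283.5, 6175.5 and 3381 UMIs. Over these ranges Azin1 (64.8, 111 and 151 CPM) and Sat1 (506, 915 and 1270 CPM) rose too. Oaz1 fell (863, 791 and 714 CPM), and the intervals of Odc1, Srm and Sms overlapped among the ranges. The ranges were not split by Camp. Of wild-type neutrophils, 3978 of 3980 had less than 0.5% in Wfdc17, and in these Arg2 was at 10.3 CPM.

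Arg2 was lower in monocytes of both libraries and in PyMT B cells than in the pooled neutrophils of the same library. The interval of wild-type B cells overlapped that of wild-type neutrophils. Monocytes had 16.9 CPM in PyMT (198 UMIs) and 3.35 CPM in wild type (11 UMIs), a log2 ratio of 2.33 (1.46 to 3.36). B cells had 14.0 CPM in PyMT (59 UMIs) and 8.41 CPM in wild type (11 UMIs), a log2 ratio of 0.73 whose interval of −0.21 to 1.81 includes 0. In both classes Arg2 moved with the share of S100a8 and S100a9, the genes that define neutrophils in the class rule. PyMT monocytes had 4.32 CPM of Arg2 (2 UMIs) where that share was under 1%, 14.4 CPM at 1 to 3% and 57.4 CPM at 3 to 5%. Wild-type monocytes had 1.36, 11.6 and 51.0 CPM in the same ranges, from 4, 3 and 4 UMIs.

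The ranges held different parts of the libraries. Of PyMT monocytes 90.6% lay in the range of 1 to 3%, whereas 89.6% of wild-type monocytes lay under 1%. Within ranges the log2 ratio of monocyte Arg2 was 1.67 (−1.80 to 4.47) under 1%, 0.31 (−1.27 to 2.60) at 1 to 3% and 0.17 (−1.28 to 2.11) at 3 to 5%. No range gave an interval clear of 0, with only 4, 3 and 4 UMIs in wild type. The intervals under 1% and at 1 to 3% also include the pooled monocyte log2 ratio of 2.33. The part of the unequal S100a8 and S100a9 shares in the pooled ratio was not tested. In B cells the levels along the ranges were 0, 10.5 and 68.3 CPM in PyMT, from 0, 39 and 20 UMIs. In wild type they were 1.81, 24.2 and 147 CPM, from 2, 4 and 5 UMIs. The log2 ratio of B cell Arg2 was −1.21 (−2.68 to 0.74) at 1 to 3% and −1.11 (−2.56 to 0.66) at 3 to 5%, with intervals that include 0. The 10 neutrophil markers together stood at 4.82% of their neutrophil level in PyMT monocytes and at 3.27% in wild-type monocytes. Arg2 at those percentages of its own neutrophil level would be 3.71 CPM in PyMT and 0.340 CPM in wild type, less than measured. For B cells the same calculation gave 3.60 CPM in PyMT and 0.298 CPM in wild type, also less than measured. The calculation takes Arg2 and the markers to keep 1 proportion in all neutrophils. In PyMT the markers were at 96532 CPM in Camp-high and 54032 CPM in Camp-low cells, whereas Arg2 was higher in Camp-low cells. The part of neutrophil RNA in the monocyte and B cell values was not tested.

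**Figure D2:**
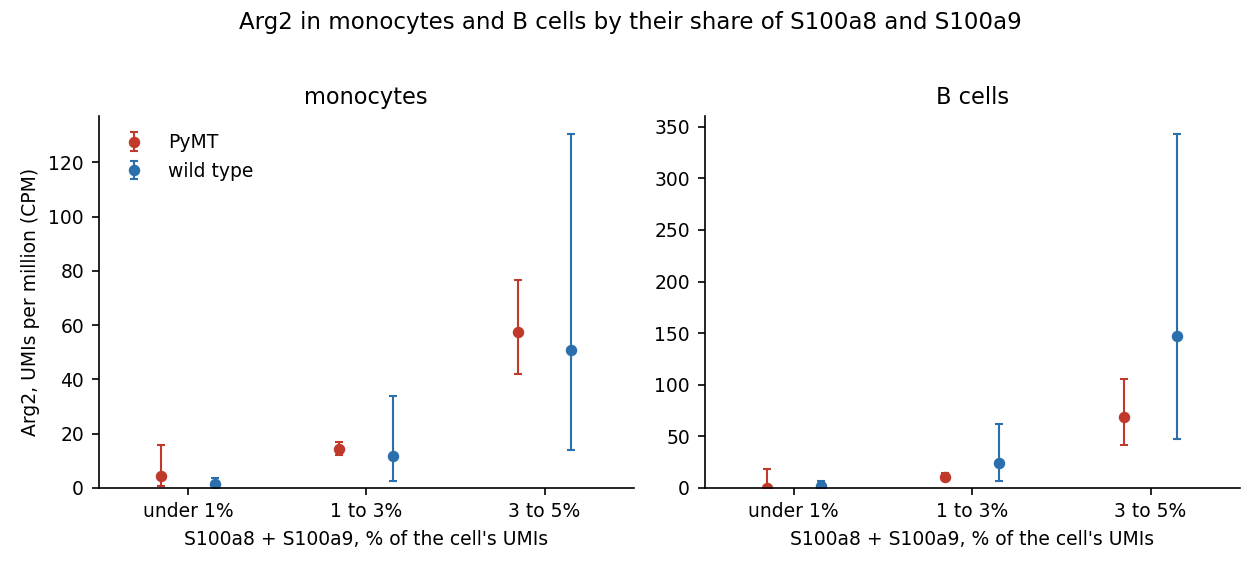
Arg2 in CPM (linear axes from 0) in monocytes (left panel) and B cells (right panel), grouped by the share of each cell's UMIs in S100a8 and S100a9. Points are sums over cells in PyMT (red, left) and wild type (blue, right) with exact Poisson 95% intervals. Arg2 is higher at higher shares in both libraries, at 57.4 CPM in PyMT and 51.0 CPM in wild-type monocytes at 3 to 5%.

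Ordered over the 10 sums of the 3 strata, monocytes and B cells in both libraries, Arg2 was highest in PyMT Camp-low cells. Wild-type Camp-low and PyMT Camp-middle cells came next, with overlapping intervals. Then came wild-type Camp-middle cells, whose interval overlapped that of PyMT monocytes. PyMT monocytes, PyMT Camp-high cells and PyMT B cells followed at levels that did not differ beyond their intervals. Wild-type B cells and Camp-high cells had nearly equal levels. The interval of wild-type B cells also overlapped those of PyMT monocytes, Camp-high cells and B cells. Wild-type monocytes were lowest, with an interval that overlapped that of wild-type B cells. The 3 genes whose log2 levels were most like Arg2 over these 10 sums, by Pearson's r among 8350 genes, were Sfxn5 (0.99), Retn (0.96) and Gk (0.96). The sums share libraries and depth, so these are descriptions.

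Arg1, the cytosolic arginase widely used as a marker of suppressive myeloid cells (chr10:24915221-24927484, minus strand), had no UMI in any cell. In neutrophils, 0 of 5488 PyMT cells allow a share with an Arg1 UMI of up to 0.0672%, and 0 of 3980 wild-type cells allow up to 0.0926%. In monocytes the limits were 0.241% in PyMT and 0.694% in wild type. Nos2, the inducible nitric oxide synthase (chr11:78920787-78960254, plus strand), had 35 UMIs in 35 PyMT cells and 0 UMIs in wild type. Of the PyMT cells 33 were neutrophils, 2 of them Camp-high, 13 Camp-middle and 18 Camp-low, and 2 cells met no class rule. Nos2 was thus at 0.683 CPM (0.470 to 0.959) in PyMT neutrophils. Against a floor of 3 UMIs in the wild-type neutrophil sum the PyMT level was at least 6.92-fold higher by its point value, and the exact lower limit of the log2 ratio was smaller, at 2.41. With wild-type weights of the strata the PyMT level was 0.176 CPM. Within each stratum the level of that floor in wild type was above the PyMT level, so no difference of Nos2 was detectable within a stratum. No Nos2 UMI was seen in monocytes or B cells of either library.

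**Figure D3:**
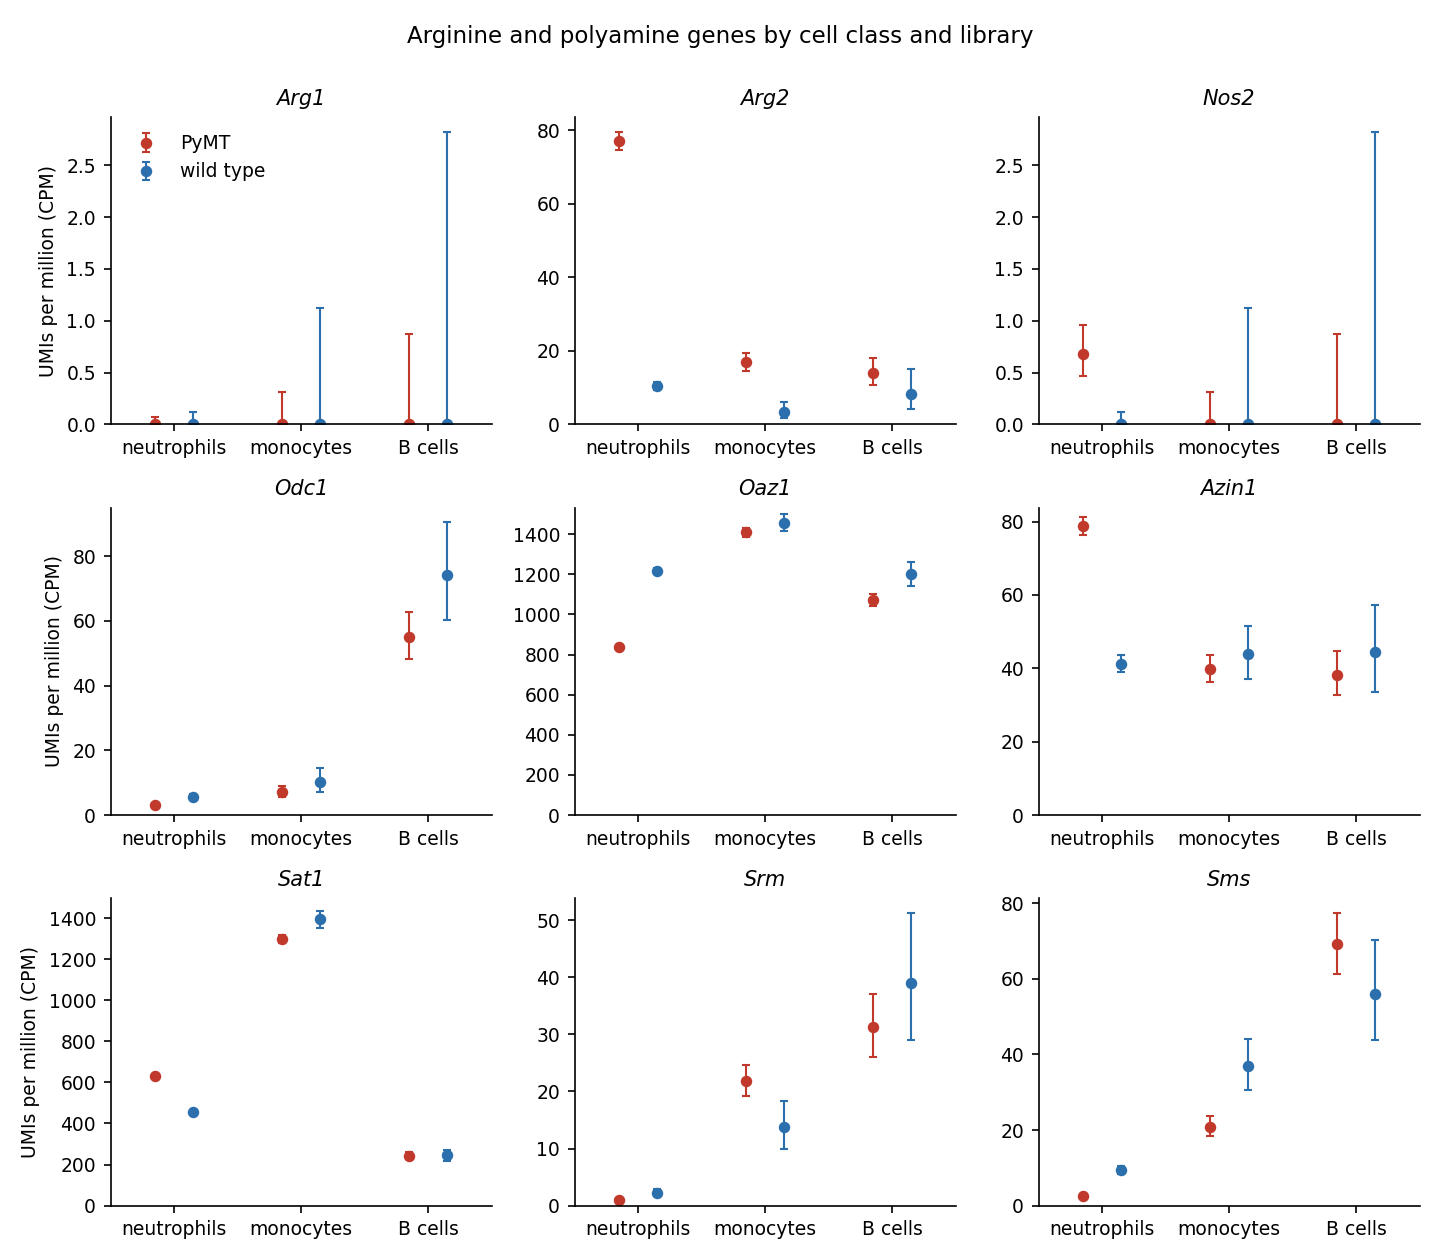
Levels of the 9 genes in CPM (linear axes from 0, with a scale of its own for each gene) in neutrophils, monocytes and B cells. Points are sums over cells of a class in PyMT (red, left) and wild type (blue, right), with exact Poisson 95% intervals. Arg1 is at 0 throughout, and Arg2 and Azin1 stand out in PyMT neutrophils at 77.1 and 78.8 CPM.

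Single genes were read against all genes of the same class. In neutrophils 6.8% of 9927 genes were called higher in PyMT and 41.9% lower, and the median log2 ratio of all genes was −0.47. Scaled by the trimmed mean of M-values, a shift of −0.45 was removed, the median became −0.02, and 16.4% were called higher and 17.6% lower. Of the 9 genes, 7 had enough UMIs, and 2 were called higher (Arg2 and Azin1) and 3 lower (Odc1, Srm and Sms), with a median log2 ratio of −0.53. In Camp-high cells Arg2 was called higher and Odc1, Srm and Sms lower of 7 compared (3.1% of all genes higher, 39.9% lower). In Camp-middle cells Arg2 and Azin1 were called higher and Sms lower of 6 (4.17% and 45.7%), and in Camp-low cells Arg2 and Azin1 were called higher of 4 and none lower (5.91% and 12.2%). The lower calls in neutrophils, 3 of 7, are thus near the share among all genes.

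Monocytes had no such shift, and B cells had a smaller one toward higher values in PyMT. In monocytes 6.62% of 8806 genes were called higher and 6.7% lower. Arg2 and Srm were called higher and Sms lower of the same 7 genes, whose median log2 ratio was −0.10 against 0.02 for all genes. In B cells 8.25% of 6893 genes were called higher and 3% lower (6.30% and 3.89% with the trimmed mean of M-values). None of the 7 was called in B cells, and their median was −0.16 against 0.11 for all genes. Among cells left without a class, 7.47% of genes were called higher and 10.2% lower.

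**Figure D4:**
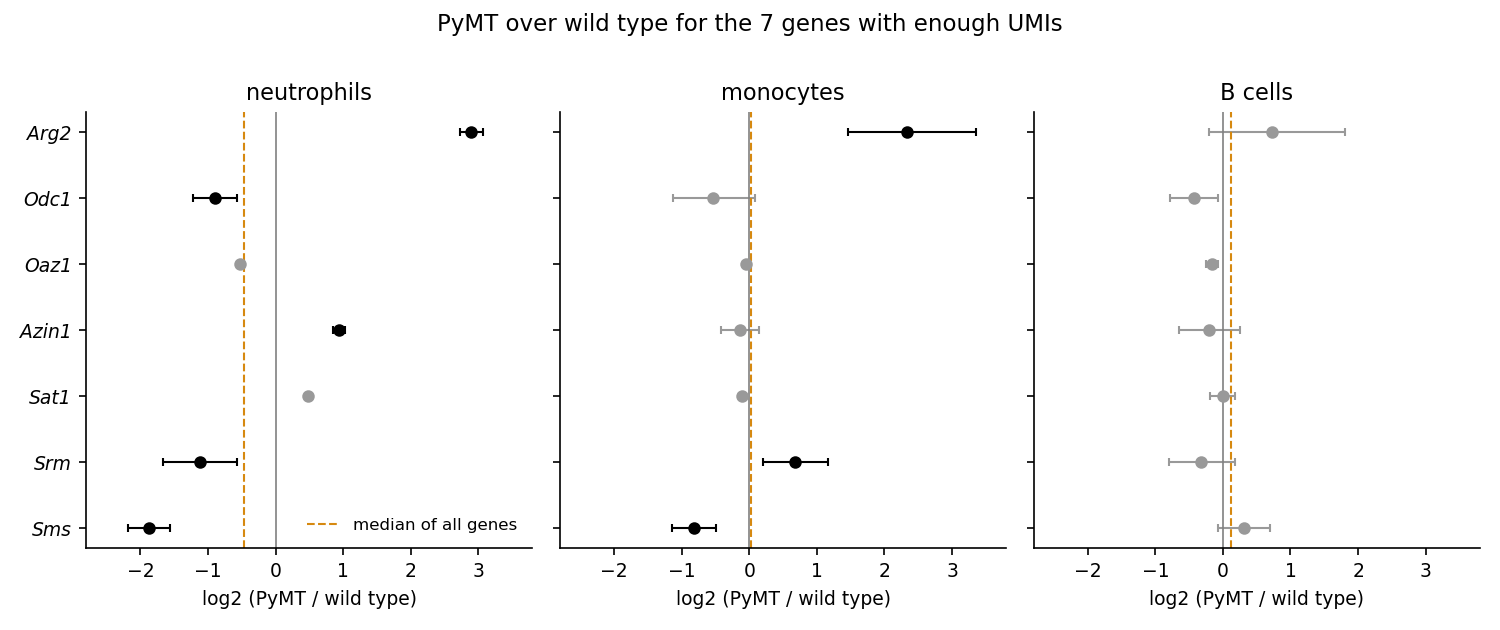
Log2 ratio of PyMT over wild type for the 7 genes with at least 50 UMIs in neutrophils, monocytes and B cells, with exact conditional 95% intervals (smaller than the point where not visible). Black points were called at 1.5-fold, grey points were not, and the dashed line is the median of all genes of the class. Arg2 lies at 2.89 in neutrophils and 2.33 in monocytes, and Sms at −1.88 in neutrophils and −0.82 in monocytes.

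Odc1 encodes ornithine decarboxylase, the enzyme that commits ornithine to polyamines (chr12:17544794-17551505, plus strand). It was scarce in neutrophils, at 3.06 CPM in PyMT (148 UMIs) and 5.73 CPM in wild type (174 UMIs). The log2 ratio was −0.90 (−1.23 to −0.58), or −0.43 relative to the median of all genes, and it was no longer called under the scalings that remove that shift (−0.45 and −0.39) or without cycling cells (−0.53). From Camp-high to Camp-low the levels were 2.83, 3.02 and 3.60 CPM in PyMT and 5.77, 5.43 and 4.35 CPM in wild type, the last from 1 UMI. In PyMT Camp-low over Camp-high cells gave a log2 ratio of 0.35 (−0.30 to 0.98), and in wild type the single UMI allows no reading. Monocytes had 7.17 CPM in PyMT and 10.4 CPM in wild type. B cells had the highest Odc1 of the classes, at 55.1 CPM in PyMT and 74.2 CPM in wild type, a log2 ratio of −0.43 (−0.78 to −0.07) that fell short of 1.5-fold.

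Odc1 was also higher in cycling neutrophils, defined by at least 5 UMIs of 15 cell cycle genes. In PyMT it was at 4.91 CPM (3.29 to 7.05) in cycling and 2.80 CPM (2.32 to 3.36) in other neutrophils, with overlapping intervals. In wild type it was at 10.3 CPM (8.22 to 12.8) in cycling and 4.05 CPM (3.25 to 4.97) in other neutrophils. The cycling cells were deeper, with a median of 15908 against 7913 UMIs in PyMT and 14592.5 against 5332.5 UMIs in wild type. Cycling cells were 6.40% of neutrophils in PyMT and 12.3% in wild type.

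Ornithine decarboxylase is held in check by antizymes. Oaz1 (chr10:80826656-80829290, plus strand) and Oaz2 (chr9:65668001-65690300, plus strand) encode antizymes, which bind the enzyme and send it to the proteasome. Their full-length proteins are made only when the ribosome shifts reading frame at an early stop codon, a step favoured by high polyamines. The site is shown because it sets both genes apart from the other members and because a transcript count does not see it. Capitals mark the last sense codon and the stop codon at which the frame shifts, in transcripts of GENCODE release M21 on GRCm38.
Oaz1: cctcggtggtgcTCCTGAtgtccctcaccc
Oaz2: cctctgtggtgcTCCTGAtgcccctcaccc
The 30 bases differ at 2 positions, and the stop lies 68 codons from the first ATG in Oaz1 and 32 codons in Oaz2.

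The transcripts of these antizymes did not move together. Oaz1 in neutrophils was at 840 CPM in PyMT (40592 UMIs) and 1216 CPM in wild type (36964 UMIs), a log2 ratio of −0.53 (−0.55 to −0.51), not called. From Camp-high to Camp-low it was at 869, 855 and 755 CPM in PyMT against 1218, 1215 and 1027 CPM in wild type. The PyMT level was the lower in each stratum, but near the median of all genes: the trimmed mean of M-values left a log2 ratio of −0.08 and the median of ratios −0.02. Oaz2, from a wider list of the pathway, was called higher in neutrophils, at 121 CPM in PyMT and 63.0 CPM in wild type, a log2 ratio of 0.94 (0.87 to 1.02). Monocytes had 1409 CPM of Oaz1 in PyMT and 1456 CPM in wild type. B cells had 1071 CPM of Oaz1 in PyMT and 1199 CPM in wild type.

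Azin1 encodes the antizyme inhibitor, which resembles ornithine decarboxylase, binds antizymes and so frees the enzyme (chr15:38487427-38519266, minus strand). In neutrophils it was at 78.8 CPM in PyMT (3808 UMIs) and 41.2 CPM in wild type (1253 UMIs), a log2 ratio of 0.93 (0.84 to 1.03). From Camp-high to Camp-low the levels were 54.0, 74.7 and 135 CPM in PyMT, against 40.5, 47.2 and 43.5 CPM in wild type. A gradient over Camp was thus present in PyMT, 2.50-fold from Camp-high to Camp-low, while the 1.07-fold difference in wild type rested on 10 Camp-low UMIs and had a log2 interval of −0.96 to 0.99. Whether the gradients differ was not tested. The log2 ratio between the libraries was 0.41 in Camp-high, 0.66 in Camp-middle and 1.63 (0.75 to 2.69) in Camp-low cells, and with wild-type weights of the strata it was 0.46. In monocytes Azin1 was at 39.9 CPM in PyMT and 43.9 CPM in wild type, and in B cells at 38.3 CPM in PyMT and 44.4 CPM in wild type, with intervals of both ratios that include 0.

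Sat1, the acetyltransferase that marks spermidine and spermine for export or oxidation (chrX:155213132-155216449, minus strand), was abundant in every class. In neutrophils it was at 631 CPM in PyMT (30480 UMIs) and 454 CPM in wild type (13810 UMIs), a log2 ratio of 0.47 (0.44 to 0.50) below the threshold for a call. It was called higher under 6 of the alternatives, at log2 ratios between 0.67 and 0.99. From Camp-high to Camp-low Sat1 was at 414, 586 and 1137 CPM in PyMT and at 403, 859 and 953 CPM in wild type. It was thus higher at lower Camp in both libraries, while the log2 ratios between libraries within strata were 0.04, −0.55 and 0.26. With wild-type weights of the strata the pooled log2 ratio was −0.06. Without cells carrying transcripts of other types, the log2 ratios within strata were 0.24 (0.20 to 0.29), −0.16 (−0.26 to −0.06) and 0.44 (0.20 to 0.69), so the direction differed among strata. Monocytes had the highest Sat1 of the classes, at 1299 CPM in PyMT and 1394 CPM in wild type, and B cells had 244 CPM in PyMT and 245 CPM in wild type.

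Srm and Sms encode the synthases that add aminopropyl groups to make spermidine and then spermine. Srm (chr4:148591503-148594993, plus strand) was scarce in neutrophils, at 1.03 CPM in PyMT (50 UMIs) and 2.24 CPM in wild type (68 UMIs), a log2 ratio of −1.11 (−1.67 to −0.57). From Camp-high to Camp-low the levels were 0.565, 1.22 and 1.60 CPM in PyMT, against 1.67 and 6.38 CPM in Camp-high and Camp-middle cells of wild type, where Camp-low cells held 3 UMIs. With wild-type weights of the strata the log2 ratio was −1.81. Without cells carrying transcripts of other types 30 Srm UMIs remained in both libraries together, too few for a call, at a log2 ratio of −1.06. In monocytes the direction was the opposite, with 21.8 CPM in PyMT (256 UMIs) and 13.7 CPM in wild type (45 UMIs), a log2 ratio of 0.67 (0.21 to 1.16). Markers of other cells also differed between the libraries in monocytes, in both directions. The summed level of 5 progenitor markers, among them Mpo and Elane, was 245 CPM in PyMT monocytes and 42.4 CPM in wild-type monocytes, and that of 5 dendritic cell markers was 17.8 CPM in PyMT and 95.4 CPM in wild type. Their part in the result was not tested.

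Sms (chrX:157443855-157492287, minus strand) was the gene of the set with the most negative log2 ratio in neutrophils. It was at 2.57 CPM in PyMT (124 UMIs) and 9.41 CPM in wild type (286 UMIs), a log2 ratio of −1.88 (−2.19 to −1.57), or −1.40 relative to the median of all genes. From Camp-high to Camp-low the levels were 2.05, 2.97 and 2.80 CPM in PyMT, against 7.96 and 21.7 CPM in Camp-high and Camp-middle cells of wild type, where Camp-low cells held 3 UMIs. The PyMT level was the lower in Camp-high and Camp-middle cells, and the Camp-low log2 interval of −3.91 to 0.14 includes 0. Without cells carrying transcripts of other types the log2 ratio was −1.36 (−1.91 to −0.83) in Camp-high cells and −2.20 (−3.37 to −0.91, from 23 UMIs in PyMT and 9 in wild type) in Camp-middle cells. Sms was at 9.99 CPM in PyMT and 19.5 CPM in wild type among cycling neutrophils, and at 1.53 CPM in PyMT and 5.71 CPM in wild type among the others. The PyMT level was therefore the lower in cycling and in other cells alike. Monocytes had 20.9 CPM in PyMT (245 UMIs) and 36.9 CPM in wild type (121 UMIs), a log2 ratio of −0.82 (−1.14 to −0.49). B cells had 69.1 CPM in PyMT and 55.8 CPM in wild type, with a log2 interval of −0.07 to 0.70.

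A wider list of 43 genes covered arginine supply, ornithine use, other polyamine enzymes and carriers, methyl donors and hypusine formation. In neutrophils 27 had enough UMIs, of which 5 were called higher and 12 lower, with a median log2 ratio of −0.49 against −0.47 for all genes. The share of lower calls was near the 41.9% of all genes, and 6.8% of all genes were called higher. With the trimmed mean of M-values 7 were called higher and 7 lower, where 16.4% of all genes were higher and 17.6% lower. Smox, the spermine oxidase (chr2:131491496-131525922, plus strand), had the highest log2 ratio of the list. It was at 29.2 CPM in PyMT (1412 UMIs) and 10.5 CPM in wild type (318 UMIs), a log2 ratio of 1.48 (1.31 to 1.66). Like Arg2 it was highest in Camp-low cells, with 10.5, 19.4 and 84.0 CPM from Camp-high to Camp-low in PyMT and 9.69, 15.6 and 30.4 CPM in wild type, the last from 7 UMIs. With wild-type weights of the strata its log2 ratio was 0.20.

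The other higher calls served different steps. Gch1, which starts synthesis of the nitric oxide synthase cofactor tetrahydrobiopterin, was at 20.4 CPM in PyMT and 8.49 CPM in wild type. Its log2 ratio of 1.26 became 0.40 with wild-type weights of the strata. From Camp-high to Camp-low its log2 ratios were 0.58 (0.27 to 0.89), −0.04 (−0.37 to 0.31) and 0.25 (−0.88 to 1.71), none of them called. Oat, the aminotransferase that takes ornithine toward proline and glutamate, was at 17.2 CPM in PyMT and 8.16 CPM in wild type, with a log2 ratio of 1.07 that became 0.67. Within strata Oat was called higher in Camp-high cells only, at 0.83 (0.56 to 1.11). It was at −0.33 (−0.77 to 0.14) in Camp-middle cells and at 0.97 (−0.40 to 2.86, with 4 wild-type UMIs) in Camp-low cells. Oaz2, given above, had 0.56 in place of 0.94 under the same weights. Mat2b, a regulatory subunit of methionine adenosyltransferase, was at 74.5 CPM in PyMT and 49.3 CPM in wild type, a log2 ratio of 0.60 (0.51 to 0.68). Its log2 ratios within strata were 0.48, 0.56 and 0.63, none of them called.

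The lower calls in PyMT neutrophils, made where 41.9% of all genes were called lower, fell on carriers and enzymes of several steps. Slc7a1, a cationic amino acid transporter that imports arginine, was at 0.579 CPM in PyMT and 2.96 CPM in wild type, a log2 ratio of −2.35 (−3.02 to −1.73). Slc3a2, the partner chain of several amino acid transporters, was at 38.3 CPM in PyMT and 74.0 CPM in wild type. Atp13a3, a polyamine-transporting ATPase, was at 4.76 CPM in PyMT and 16.7 CPM in wild type. The carriers Slc7a7 and Atp13a2 were not called, with log2 ratios of −0.49 and −0.09. Among enzymes, Paox, the oxidase of acetylated polyamines, was at 2.30 CPM in PyMT and 8.26 CPM in wild type. Prodh, proline dehydrogenase, was at 1.43 CPM in PyMT and 5.46 CPM in wild type, and Mat2a, the catalytic subunit of methionine adenosyltransferase, was at 10.2 CPM in PyMT and 26.6 CPM in wild type. Pycrl, a pyrroline-carboxylate reductase, and Spr, the reductase that completes tetrahydrobiopterin, had log2 ratios of −1.47 and −1.11. These 8 genes were called lower in Camp-high cells as well, at log2 ratios between −2.49 and −0.91, where 39.9% of all genes were called lower. Camp-high cells held 88.9% of the UMIs of wild-type neutrophils and 40.3% of those of PyMT neutrophils, so these calls are no separate support. Of the 8 genes, Slc3a2 was not called under the trimmed mean of M-values or the median of ratios. Spr was not called without cells carrying transcripts of other types, and Slc7a1 was not called without cycling cells. The other 4 lower calls had log2 ratios between −0.87 and −0.69.

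In monocytes 24 genes of the wider list had enough UMIs, and 2 were called higher and 3 lower, against 6.62% and 6.7% of all genes. Gatm, which transfers the amidino group of arginine to glycine in creatine synthesis, was at 163 CPM in PyMT (1914 UMIs) and 75.9 CPM in wild type (249 UMIs), a log2 ratio of 1.11 (0.92 to 1.30). Paox was at 12.8 CPM in PyMT (150 UMIs) and 6.71 CPM in wild type (22 UMIs), a log2 ratio of 0.93 (0.28 to 1.65), against a negative one in neutrophils. Slc7a1, Slc3a2 and Mat2a were called lower, as in neutrophils, with log2 ratios of −1.18, −0.64 and −0.66. In B cells 20 were compared, and Oat, Oaz2 and Mat2b were called higher and none lower, against 8.25% and 3% of all genes. The summed level of 4 erythroid markers was 2457 CPM in PyMT B cells and 8.41 CPM in wild-type B cells, and its part in these calls was not tested.

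**Figure D5:**
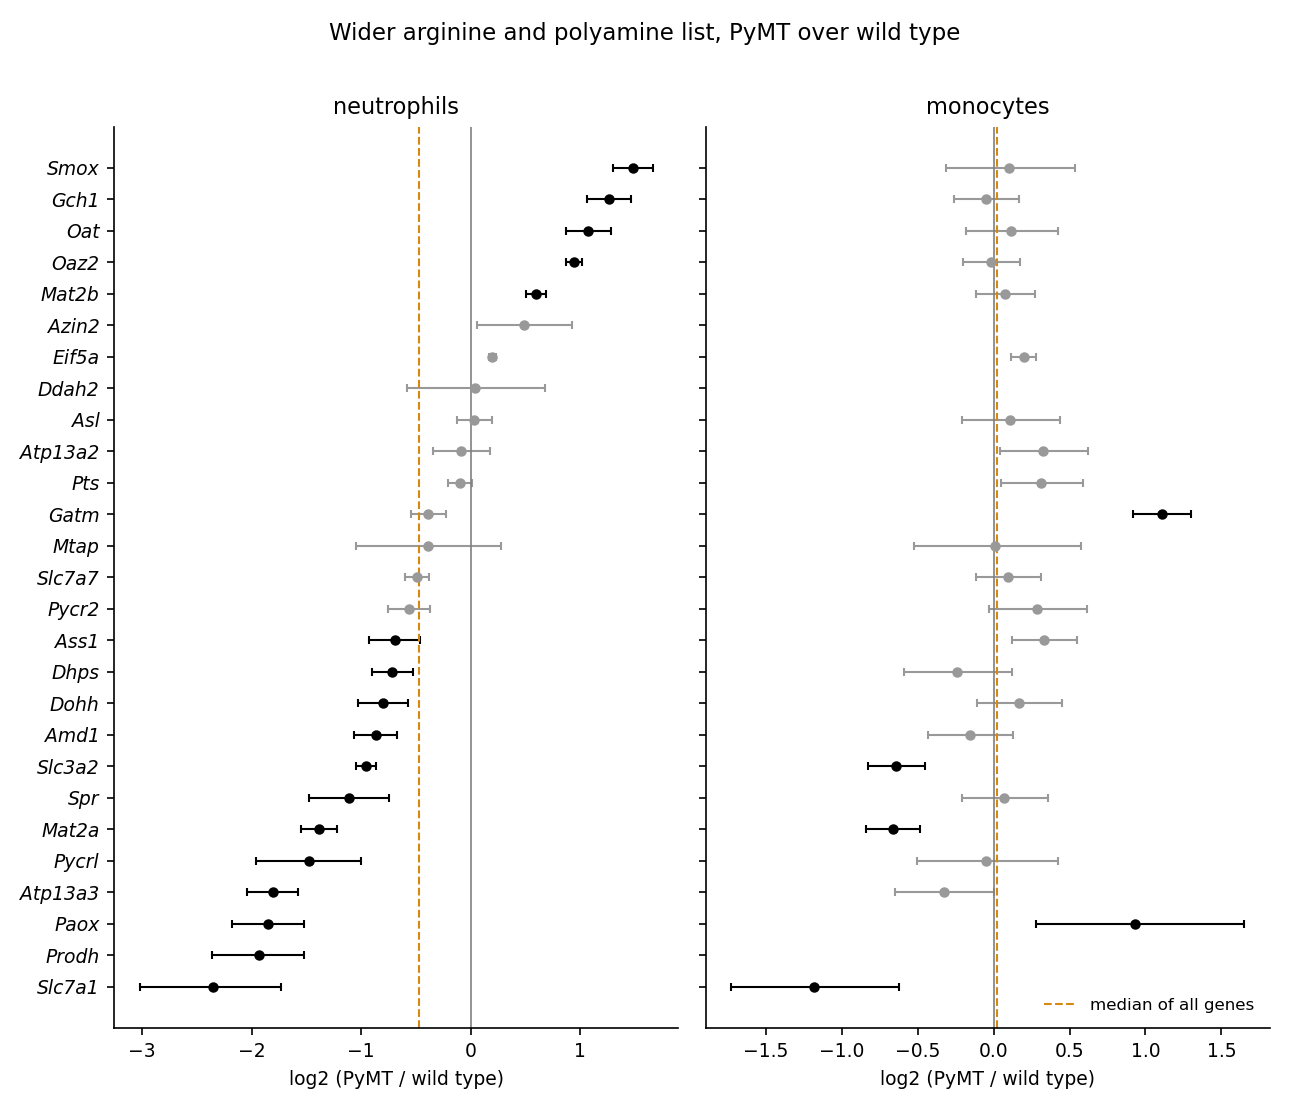
Log2 ratio of PyMT over wild type with exact conditional 95% intervals for the 27 genes of the wider list compared in neutrophils (left) and the 24 compared in monocytes (right). Black points were called at 1.5-fold, grey points were not, and the dashed line is the median of all genes of the class. Smox leads in neutrophils at 1.48 and Gatm in monocytes at 1.11, while Slc7a1 lies lowest in both, at −2.35 and −1.18.

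Each of the other detected members with at least 200 UMIs was also set beside all genes over the 10 sums. Odc1 was most like Strbp, Phxr4 and Cd69 (Pearson's r of 0.99 each), and Sms most like Hes1, Cd74 and Birc6 (0.99 each). Both Odc1 and Sms were highest in B cells. Sat1 was most like Ftl1, Rac1 and Myadm (0.98 each), Oaz1 like Atp5k, Pcna and Pcbp1 (0.98, 0.98 and 0.97), and Srm like Msto1, Ngfrap1 and Dpp7 (0.99 each). Azin1 was most like Tlr4, Hrh2 and Rab23 (0.93, 0.91 and 0.91). The SD of its log2 level over the sums was 0.52, against 1.47 for Arg2.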

How the data were processed

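Sorted spleen cells were profiled on the 10x Genomics Chromium platform with version 2 reagents for 3′ ends, per the labels' protocols. The submitters' processing notes name Cell Ranger 2.1.0 and the genome build mm10. The deposited files hold raw counts of UMIs per gene and cell. The lowest cell held 2502 UMIs in PyMT and 2752 in wild type.

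The members and gene lists were chosen with earlier results of these data known. Groups follow the titles in the labels. Cells had to hold 200 genes and no more than 10% mitochondrial UMIs, which removed 5 cells of PyMT and 0 of wild type. Cells that met both the monocyte and the B cell rule (71 in each library) went to neither. They are counted among the 1055 PyMT and 677 wild-type cells left without a class, and the rest of these met no rule. For every class of a library, UMIs were added up and divided by the class total (CPM), with exact Poisson intervals. Log2 ratios have the exact conditional interval and shares the Clopper-Pearson interval, and a sum at 0 was set to a floor of 3 UMIs. No p-value was computed. Doublets were left out only as an alternative. The calculation was tested on simulated data. The direction of a 1.5-fold change was recovered for 47 of 50 genes in neutrophils, 36 of 50 in monocytes and 26 of 50 in B cells. Levels are not corrected for gene length and were not compared between genes.

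Of the wider list, genes called in neutrophils or monocytes are named, up to 8 per direction and class by the interval bound nearest 0. Likeness used log2(CPM + 5). Alternatives were other scalings (trimmed mean of M-values, median of ratios, a total that leaves out the 50 top genes, cells weighted equally), thinned cells, other cell filters, simulated doublets or cycling cells left out, stricter classes, other UMI minimums and Camp limits, and strata weighted as in wild type. Chosen after the data were seen were the removal of neutrophils with transcripts of other types and the split of monocytes and B cells by S100a8 and S100a9. Python 3.11.15, scipy 1.17.1 and scanpy 1.11.5 were used. Gene positions and transcripts come from GENCODE M21 (GRCm38, also named mm10).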

Additional observations from a re-analysis of the deposited data

Results flagged for a closer look

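Srm differed in direction between classes, with a log2 ratio of PyMT over wild type of −1.11 in neutrophils and 0.67 in monocytes. Paox did the same, at −1.85 in neutrophils and 0.93 in monocytes. The difference between the classes was not tested, since each condition is 1 library.

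The 1055 PyMT and 677 wild-type cells left without a class are of no named type. They include the 71 cells of each library that met both the monocyte and the B cell rule. In these cells Arg2 was at 53.8 CPM in PyMT and 8.99 CPM in wild type, a log2 ratio of 2.58. Srm had a log2 ratio of 0.68 there. The summed level of 10 neutrophil markers in these cells was 39080 CPM in PyMT and 50069 CPM in wild type. That of 4 erythroid markers was 7802 CPM in PyMT and 26.0 CPM in wild type. Cells most like simulated doublets were 31.0% of them in PyMT and 22.0% in wild type. The part of these transcripts and cells in the Arg2 and Srm values was not tested.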

How the results depend on the processing

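No paired analysis was possible because each group is 1 library, and no replicate could be left out. The log2 ratio of Arg2 in neutrophils, 2.89, was 3.34 with the trimmed mean of M-values, 3.41 with the median of ratios, 3.09 with cells weighted equally, 2.71 without neutrophils holding transcripts of other types, and 1.04 with Camp strata weighted as in wild type. The Camp-low over Camp-high log2 ratio of Arg2 in PyMT, 3.94, was 4.28 in thinned cells and 3.66 with Camp limits of 3% and 0.5%. The share of PyMT neutrophils with an Arg2 UMI, 41.8%, was 10.8% in thinned cells and 43.3% without cycling cells. In thinned cells 0 genes of the set were called lower in neutrophils, against 3, as Odc1, Srm and Sms kept 44, 8 and 35 UMIs, below the minimum of 50. In monocytes 2 were called higher and 1 lower, against 0 higher and 0 lower in thinned cells and under stricter class thresholds, which kept 50 PyMT monocytes. Without cycling cells 2 were called lower in monocytes (Odc1 and Sms). Of the wider list, 12 genes were called lower in neutrophils, against 7 with the trimmed mean of M-values, 7 with the median of ratios and 6 in thinned cells, while the share of all genes called lower was 41.9%, against 17.6%, 15.3% and 24.1%. In monocytes 2 of that list were called higher, against 1 in thinned cells and 1 at a minimum of 200 UMIs, and 3 lower, against 1 in thinned cells. In B cells 1 was called lower under stricter class thresholds, against 0. The causes were not tested. Azin1 in neutrophils was called higher under each scaling tried. Of the other values computed under alternatives, 160 of the main results and 230 of the single-gene values stayed within their intervals or within 1.5 times for counts, and 51 single-gene values moved beyond them. Depth limits the wild-type Camp-low stratum and Nos2, Srm, Odc1 and Sms in neutrophils most.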
